A study of Paulownia elongata with 6 samples.

Results

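The transcripts described here are the 100 leaf transcript models of Paulownia elongata, a fast-growing tree, whose share of the library varied least over 6 libraries from plants at 40 °C and 25 °C. A transcript model is a coding sequence known by an identifier, and its level is given as CPM, the reads assigned to the model per 1000000 reads of its library. Of 43380 models, 4087 had 20 CPM or more in all 6 libraries. The 100 with the smallest coefficient of variation (CV, the SD divided by the mean) of CPM over these libraries were taken. The choice used the level in every library and therefore also the contrast of heat with control, so their own levels are given as a description, without a test.

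The heat group was 3 leaf libraries made after a 24-hour exposure to 40 °C under a cycle of 12 hours light and 12 hours dark. The control group was 3 leaf libraries at 25 °C, for which the labels state no light cycle. All plants were of the same species and were grown for 14 days in potting soil, with a labelled age of 3 years. Whether the 3 libraries within a group were taken from different plants is not stated, and no check of leaf markers could be made, since the files do not pair identifiers with gene names.

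High temperature sets off the heat shock response in plants, in which chaperone genes are strongly transcribed while many other genes are turned down. Transcripts that keep a steady share of the RNA pool through such a change are the kind sought as internal references for RT-qPCR, where the level of a gene of interest is divided by that of a reference. A library reports shares of its reads, so steadiness is always relative to the other transcripts in it. In RNA from whole leaves, fewer cells of a type and less RNA per cell cannot be told apart.

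The libraries held 3570524, 2425787 and 2487845 estimated reads in heat 1 to 3, and 1337663, 730315 and 2153266 in controls 1 to 3. A level of 20 CPM is 48.5 to 71.4 reads in the heat libraries and 14.6 to 43.1 in the controls. Controls 1 and 2 stood apart from the other 4 libraries, with Spearman's rho across all models of 0.87 with each other and of 0.54 to 0.72 with the rest. They listed 14122 and 14448 models at 0, against 1182 to 2429 in the heat libraries and 3297 in control 3. Without them, control 3 is the only control.

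The steadiest model was TR56139|c0_g1_i3|m.109152, of 1446 coding bases, with a CV of 5.09%. Its level was 47.1, 48.6 and 50.5 CPM in heat 1 to 3, and 47.1, 47.5 and 43.2 CPM in controls 1 to 3. The groups overlapped, and the mean was 48.7 ± 1.73 CPM in heat against 45.9 ± 2.37 CPM in control (SD, n = 3 each). The next was TR47889|c0_g1_i1|m.93917, of 705 coding bases, with a CV of 6.84%. It had 48.4, 50.3 and 49.7 CPM in heat and 53.1, 54.8 and 45.1 CPM in the controls. Its heat libraries lay inside the range of its controls.

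TR89|c0_g1_i1|m.369, of 831 coding bases and a CV of 7.48%, had 56.1, 49.4 and 52.6 CPM in heat and 53.8, 45.2 and 50.01 CPM in the controls. TR23598|c0_g1_i1|m.46447, of 1332 coding bases and a CV of 7.73%, had 24.8, 25.1 and 24.1 CPM in heat and 20.2, 23.3 and 24.5 CPM in the controls. Both had overlapping groups, and in both the lowest library was a control. TR23598 was also among the lowest members in level, and rested on 88.6 reads in heat 1 but 17.0 in control 2. The lowest mean of all was that of TR67435|c0_g1_i1|m.129818, at 22.8 ± 0.901 CPM in heat and 24.5 ± 3.39 CPM in control (SD, n = 3 each).

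The most abundant member was TR10223|c0_g2_i4|m.19914, of 1275 coding bases, with 658, 887 and 833 CPM in heat and 777, 891 and 747 CPM in the controls. The lowest value was heat 1 and the highest control 2, and the groups overlapped. TR22532|c0_g1_i1|m.44402, of 1293 coding bases, came next with 247, 297 and 334 CPM in heat and 363, 308 and 257 CPM in the controls. Its groups overlapped too.

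**Figure D1:**
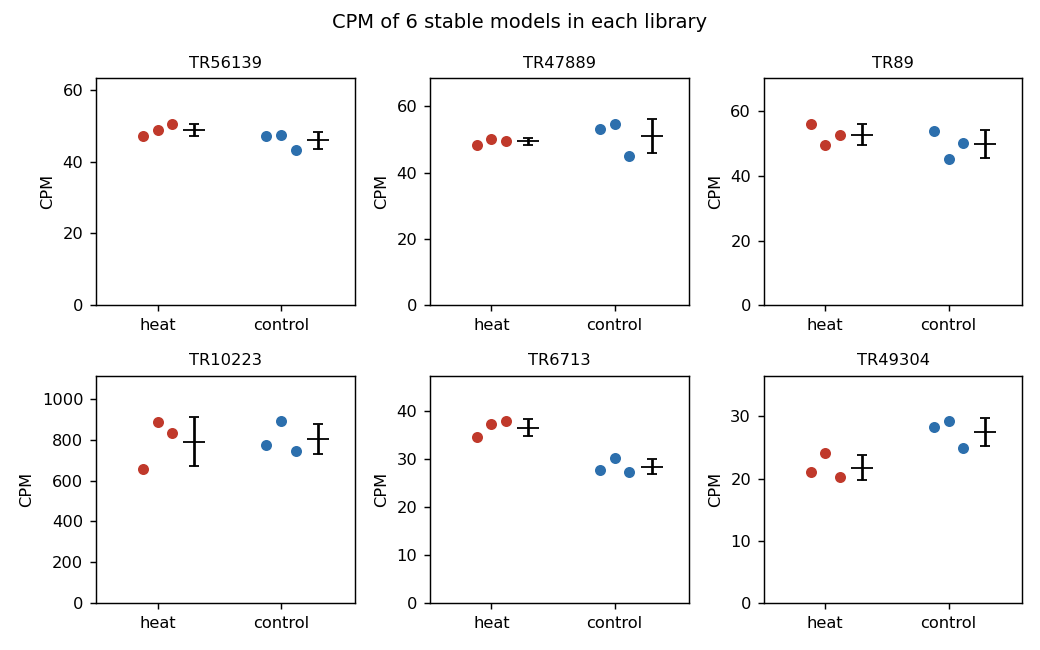
CPM of 6 of the stable models, from 0 upward, in the 3 heat libraries (red, left) and the 3 control libraries (blue, right), with the mean and SD of each group in black. Groups overlap for TR56139, TR47889, TR89 and TR10223, while heat lies above control for TR6713 and below it for TR49304.

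Not all members had overlapping groups. All heat libraries were above all controls for 3 of the 100, where 10.4% of the 4087 models showed this, and all were below for 6, where 16.8% did. The choice of small spread lowers such counts by itself, so nothing is read from them. TR6713|c0_g1_i2|m.13786 had the highest ratio of heat to control, 1.29, with 34.5, 37.2 and 37.8 CPM in heat and 27.7, 30.1 and 27.2 CPM in the controls. TR51400|c0_g1_i1|m.100950 followed at 1.21, with 169, 156 and 176 CPM in heat and 121, 155 and 138 CPM in the controls. In both the heat libraries were all higher.

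At the other end, TR49304|c0_g1_i1|m.96600 had a ratio of 0.792, with 21.0, 24.1 and 20.2 CPM in heat and 28.3, 29.2 and 24.9 CPM in the controls. It was also the shortest member, at 183 coding bases. TR31851|c0_g1_i2|m.62528 had a ratio of 0.796, with 21.6, 22.3 and 23.1 CPM in heat and 26.2, 28.8 and 29.3 CPM in the controls. In both the heat libraries were all lower. Over the 100 members the ratio of means ran from 0.792 to 1.29 with a median of 0.973, and over the 4087 models from 0.0776 to 14.5 with a median of 0.852.

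The last models taken were TR25338|c0_g1_i1|m.49831 with a CV of 14.95% and TR56334|c0_g1_i1|m.109575 with 15.02%. The first left out were TR69007|c0_g1_i1|m.133009 with 15.02% and TR21726|c0_g1_i1|m.42734 with 15.09%. No gap in the CV separates the 100 from the models that follow. The highest library was 1.17 to 1.55 times the lowest among the members, and under 1.5 times for 88 of them. Within the heat libraries alone the members' CV had a median of 12.3%, and within the controls alone 11.1%, against 26.95% and 34.5% over the 4087 models.

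**Figure D2:**
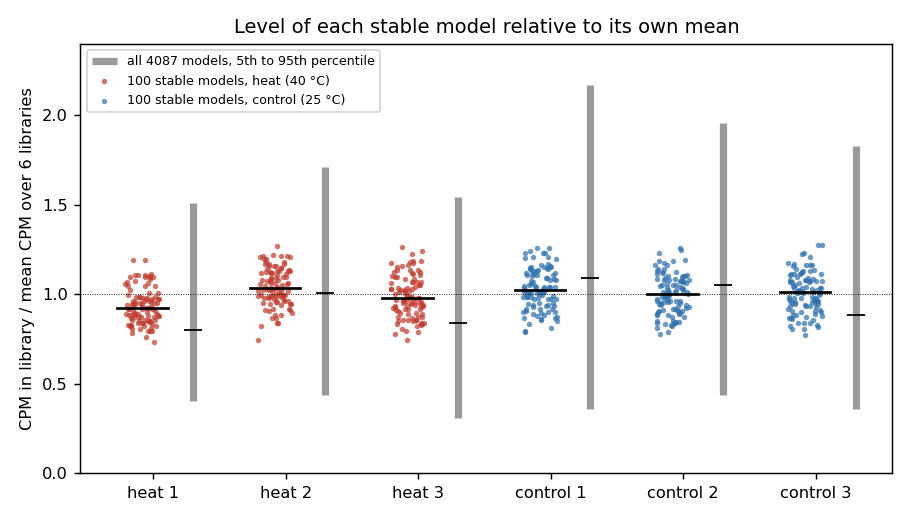
CPM of each of the 100 stable models divided by its own mean over 6 libraries, for heat (red, left) and control libraries (blue, right), with the members' median as a line and, in grey, the 5th to 95th percentile and median of all 4087 models. Members stay between 0.734 and 1.28, and their median is lowest in heat 1, at 0.922.

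Together the 100 models took 0.650%, 0.735% and 0.700% of the reads in heat 1 to 3, and 0.722%, 0.724% and 0.705% in controls 1 to 3. Heat 1 was the lowest library for 32 members and the highest for 3. Heat 2 was the highest for 27 and the lowest for 6, and control 1 was the highest for 24 and the lowest for 10. The members' median ratio to their own mean was 0.922 in heat 1, the deepest library, 1.04 in heat 2 and 1.03 in control 1. Over the 4087 models it was 0.799, 1.01 and 1.09, so the lean down in heat 1 was not particular to the members. The fragment length that Salmon used divides the libraries another way, with 140 bases in heat 2 and 133 and 141 in controls 1 and 2, against 165 and 159 in heat 1 and 3 and 166 in control 3. Short-fragment over long-fragment libraries gave a median log2 ratio of CPM of 0.08 for members and 0.28 for the 4087 models. The choice of small spread over these libraries holds the members' ratio near 0 by itself. The part of fragment length in these differences was not tested.

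The members' CV can be set beside the CV that counting reads gives, as a description, since the members were chosen on the CV. For a model at its mean CPM and these library sizes, counting alone gives a CV that falls with level. The observed CV was 0.448 to 4.06 times that value, with a median of 1.09, and was at or under it for 36 of the 100. Over the 4087 models the median was 4.39 times, and 38 were at or under it, so the choice took nearly all of these. By level, the median was 0.945 times for the 55 members with a mean of 20 to 50 CPM, 1.29 times for the 31 at 50 to 100 CPM, 1.97 times for the 9 at 100 to 200 CPM and 2.93 times for the 5 at 200 CPM or more. The choice sets both this closeness and its order by level, because the same limit on the CV lies near the counting value at low levels and far above it at high levels.

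TR56139 itself had a CV of 5.09% where counting alone gives 11.4%, so its 6 values lay closer together than counting gives on average. Its neighbours in the ranking stood likewise, with 6.84% against 11.05% for TR47889 and 7.48% against 10.9% for TR89. The abundant TR10223 had a CV of 11.2% where counting gives 2.77%, and TR22532 had 14.8% where counting gives 4.51%. The libraries of these abundant models differed by more than counting error.

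**Figure D3:**
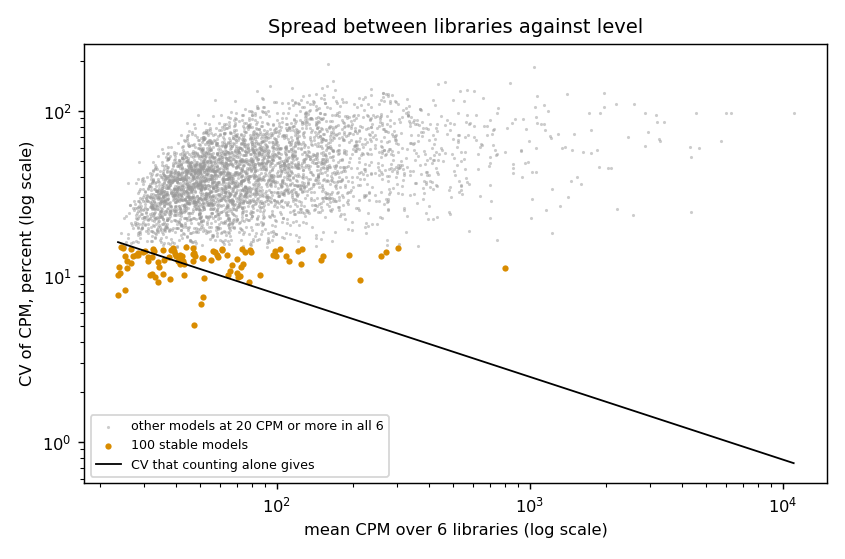
CV of CPM over 6 libraries, in percent, against mean CPM, both on log scales, for the 100 stable models (orange) and the other models at 20 CPM or more (grey). The black line is the CV that counting alone gives; the limit on the CV used in the choice places members near it at 20 to 50 CPM and above it at 200 CPM or more.

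The steadiness of the set depended on how libraries were scaled. CPM from library totals gave the members a median CV of 13.04%. With DESeq2's size factors it was 13.2%, with TMM, which scales by a trimmed mean of ratios, 15.8%, and with the deposited TPM, which divides by effective length before scaling, 21.0%. When the 100 steadiest models were chosen afresh, 51 members were taken again with size factors, 29 with TMM and 8 with TPM, and 0 were taken under all 4 scalings. The choice by TPM used a floor of 20 TPM in all 6 libraries, so the floor changed along with the scaling. The members' median TPM was 13.6 to 21.0 by library, and TR56139, at 8.03 to 12.6 TPM, could not be taken. Without regard to the floor, 17 members had a CV of TPM no higher than that of the last model taken by TPM. Under the 3 scalings of read counts 26 members were taken each time.

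Direction depended on scaling as well. Mean TPM was higher in heat for 100 of 100 members, with a median log2 ratio of 0.34, where 57.6% of the 4087 models were higher. CPM from library totals was higher in heat for 40 and lower for 60, with a median of -0.04, where 38.6% and 61.4% were. With TMM it was higher for 9 and lower for 91, with a median of -0.21, where 30.5% and 69.5% were. These shifts were shared by the other models, whose median log2 ratio over all 4087 was 0.16 in TPM, -0.23 with library totals and -0.41 with TMM. Relative to that median the members stood higher by 0.18 in TPM and 0.19 with library totals and with TMM. The choice favours ratios near 1, and rescaling moves members and other models nearly alike, so nothing is read from this offset. In TPM the heat libraries were all above the controls for 29 members and all below for 0, where 16.0% and 8.71% of the 4087 models were. With TMM they were all above for 0 and all below for 19, where 8.83% and 22.5% were. Without controls 1 and 2, mean TPM in heat was higher than TPM in control 3 for 72 members and lower for 28. It was higher for 59.6% of the 4087 models. The median log2 ratio was 0.18 for members, against 0.15 over the 4087 models.

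For TR56139 the TPM was 10.1, 12.4 and 12.6 in heat and 8.03, 8.38 and 9.14 in control, so the groups did not overlap on that scale. TR6713 had 16.7, 20.9 and 21.0 TPM in heat and 10.3, 11.7 and 12.9 TPM in control, again without overlap. TR49304, the lowest in CPM ratio, had 164, 174 and 168 TPM in heat and 119, 144 and 192 TPM in control, where the groups overlapped. The ratio of TPM to CPM for a model is the mean effective length of the reads of a library, taken as a read-weighted harmonic mean, divided by the effective length of the model in that library. The mean was 275, 334 and 321 bases in heat 1 to 3, and 224, 231 and 271 bases in controls 1 to 3. It was shortest in controls 1 and 2. The effective length of a model changes with fragment length, most for short models such as TR49304, so that their ratio need not follow this order.

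**Figure D4:**
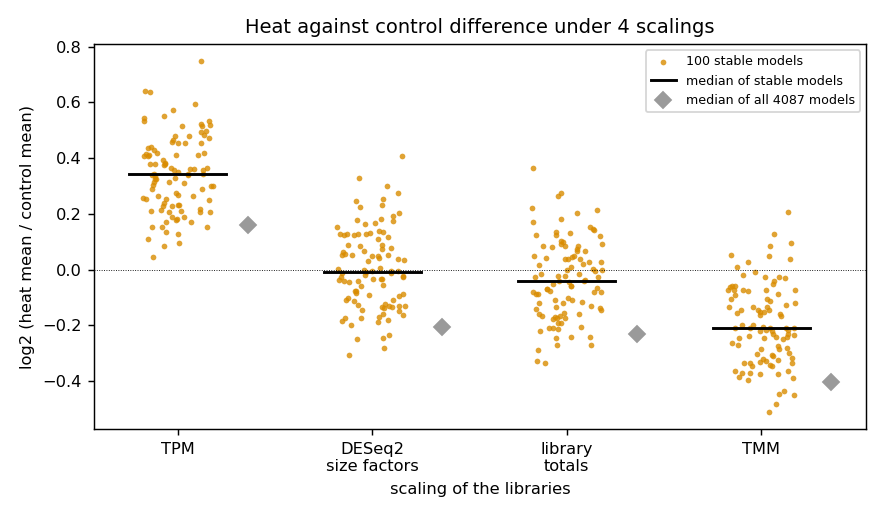
Log2 of the mean in heat over the mean in control for the 100 stable models (orange; line, median) under 4 scalings, with the median of all 4087 models as a grey diamond. Members are all above 0 in TPM, centred near 0 with size factors and library totals, and mostly below 0 with TMM.

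Across all models, edgeR's quasi-likelihood test called 0 of the 100 members at an adjusted p under 0.05, where 0.00417% of 23984 tested models did. Without adjustment 0 members had a p under 0.05, where 29.8% of tested models and 22.8% of the 4087 did. The other tools also called 0 members, where edgeR's exact test called 19.2% of models and DESeq2 called 14.3%. No member has an FDR under 0.05 in the authors' deposited table (0 of 100), where 8.49% of its models and 4.16% of the 4087 do. All 100 passed the filter on low counts. The choice of members used this contrast, so these counts describe the choice.

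A high p does not show that a member was equal in both groups. The fitted log2 fold changes, with TMM, ran from -0.49 to 0.21 among members, with standard errors of 0.36 to 0.50. The fit draws these errors partly from the spread of all tested models, so that of TR56139, with its CV of 5.09%, was still 0.38. The 95% intervals lay within 1 log2 unit of 0 for 27 of the 100 and for 3.13% of the 4087 models, a difference that the choice favours. For TR56139 the interval ran from -0.93 to 0.80 on the log2 scale, and for TR10223 from -1.34 to 0.96. This fit could therefore not show that most members differ by less than 2-fold. Against control 3 alone, the median log2 ratio of the members' heat mean was 0.01, with a range of -0.48 to 0.45. Against controls 1 and 2 it was -0.05, with a range of -0.40 to 0.34.

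A library that takes no part in the choice gives a measure that is independent of it. The 100 steadiest models were therefore chosen on 5 libraries, and their level in the sixth was set against the mean of the 5. With heat 1, 2 or 3 left out, 95, 92 and 99 of the 100 lay within 2-fold of that mean. With control 1, 2 or 3 left out, it was 97, 96 and 86. Over all models at 20 CPM or more in the other 5 libraries, 80.9%, 85.1% and 74.1% lay within 2-fold with a heat library left out, and 67.7%, 78.6% and 74.2% with a control left out. The chosen models were thus nearer to their mean in the unused library than the rest, in each of the 6 cases. No test stands behind these shares, and the 6 choices share libraries.

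The chosen models also moved as a group in heat 1 and in heat 2 when these were unused. The median log2 deviation of the chosen models was -0.40 with heat 1 left out and 0.34 with heat 2 left out, and between -0.09 and 0.06 for the other 4 libraries. Over all models at the floor it was -0.41 for heat 1 but 0.002 for heat 2. It was -0.36 for heat 3, 0.03 and 0.04 for controls 1 and 2, and -0.26 for control 3. With control 3 left out, single models reached -3.28 and 2.42. Models that looked steady over the heat libraries and controls 1 and 2 could thus lie far off in control 3. Over the 6 libraries the median absolute log2 deviation was 0.28 to 0.46 for chosen models, against 0.47 to 0.69 over all models. Of the 100 members, 30 were taken in all 6 of these choices and 1 in none. TR56139, TR47889, TR89, TR23598, TR67435 and TR10223 were among the 30.

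The members' coding lengths and gene structure were not used in the choice. Lengths ran from 183 bases in TR49304 to 3273 in TR13049|c0_g1_i1|m.25842, with a median of 1024.5 bases, against 894 over the 4087 models. The 100 steadiest models had a median of 1069.5 bases with TMM and 985.5 with size factors, but 523.5 by TPM at a floor of 20 TPM. TPM divides by effective length, so that floor asks more CPM of longer models, and scaling and floor cannot be told apart here. TR13049 had 94.1, 108 and 115 CPM in heat and 90.6, 95.8 and 77.8 CPM in the controls, with overlapping groups. Models under 500 bases made up 9 of the 100 members and 22.1% of the 4087, and models of 1000 to 2000 bases made up 50 and 35.0%. Models of 2000 bases or more made up 4 members and 7.66% of the 4087. Members were also lower in level, with a median of mean CPM of 46.6, against 71.3 over the 4087 models. Level, unlike length, was used in the choice, through the floor of 20 CPM in every library. A model with a mean near that floor passes it only if it varies little, so nothing is read from this difference. Each member came from a different gene by its identifier, and 78 of these genes had 1 model, where 80.5% of the 4087 models belong to such genes.

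For the 22 members whose gene has further models, those other models were not chosen for steadiness. There were 25 of them, with a median coding length of 252 bases, and 20 were shorter than the member. By their identifiers, 12 of the 25 were coding sequences on the same assembled transcript as the member, and were not other isoforms. Salmon divides reads shared between isoforms, so the estimated counts of other isoforms are not fully separate from those of the members. Among the 17 with enough reads to be tested, the quasi-likelihood test called 0, with a smallest adjusted p of 0.0763. Without adjustment, 4 were higher and 9 lower in heat at p under 0.05, together 76.5% of the 17, where 29.8% of all tested models were. The 7 tested models on the member's own assembled transcript made up 3 of those higher and 4 of those lower. edgeR's exact test called 9 of the 17 and DESeq2 called 8 of 22, where 19.2% and 14.3% of all models were called. Their fitted log2 fold changes ran from -3.98 to 2.30 with a median of -1.46, against 0.08 over all tested models. Their CV had a median of 81.6%, against 64.3% over all tested models. Without controls 1 and 2 it was 34.9%, against 39.5%.

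**Figure D5:**
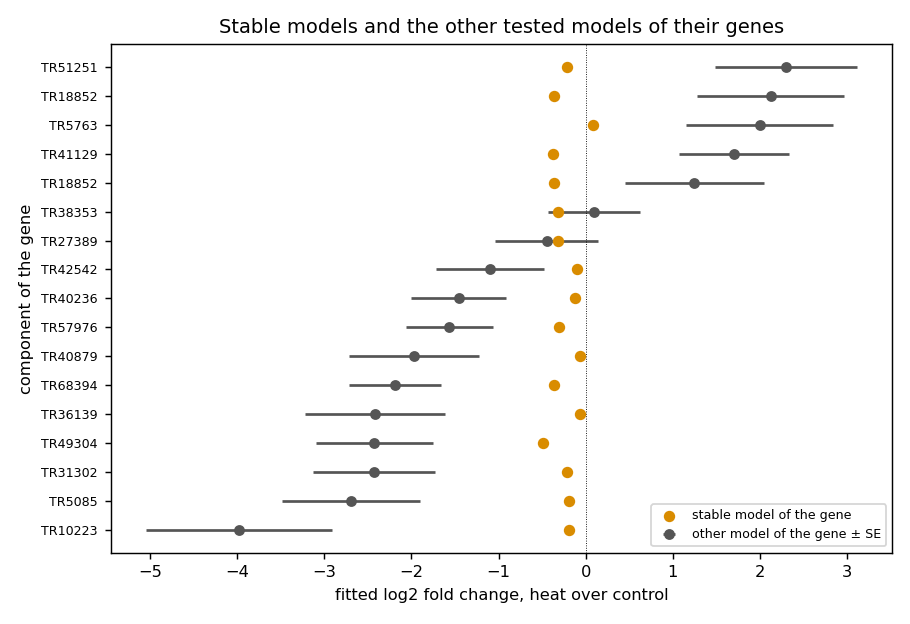
Fitted log2 fold change, heat over control, for the 17 tested other models (grey, with SE) and for the stable model of the same gene (orange), 1 line for each other model, named by component. Stable models lie near 0 by choice, and the others run from -3.98 to 2.30.

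Among the other models with a mean of 20 reads or more, the highest fitted fold change was that of TR51251|c0_g1_i1|m.100315, of 2073 coding bases. It had 35.2, 63.8 and 44.8 CPM in heat and 0.748, 5.48 and 19.2 CPM in the controls, so all heat libraries were higher, and control 1 rested on 1 read. The quasi-likelihood fit gave a log2 fold change of 2.30 (SE 0.82), and the adjusted p of 0.116 in edgeR misses the threshold. It was 0.000604, without control 3, to 0.420 over the alternatives. The member of that gene, TR51251|c0_g1_i1|m.100316, had 36.03, 32.6 and 36.04 CPM in heat and 43.4, 30.1 and 37.1 CPM in the controls. The identifiers give both models the same isoform number, so they are separate coding sequences predicted on the same assembled transcript. In heat the member took 50.6%, 33.8% and 44.6% of the gene's reads. In the controls it took 98.3%, 84.6% and 65.9%.

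The opposite extreme was TR10223|c0_g2_i2|m.19908, of 327 coding bases, which belongs to the gene of the most abundant member. It had 0.860, 6.26 and 2.04 CPM in heat and 55.2, 57.0 and 4.29 CPM in the controls, where control 3 lay inside the heat range. The fit gave a log2 fold change of -3.98 (SE 1.07), with an adjusted p of 0.0795 in edgeR that also misses the threshold. Over the alternatives it was 0.000257, without control 3, to 0.840, in the exact test without controls 1 and 2. Without controls 1 and 2 the fitted value was -0.67, and that of the TR51251 model was 1.23. The member of the gene held 93.4% to 99.9% of the gene's reads in all 6 libraries, so the gene's summed level had a CV of 12.5%.

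The differences of the other models rested largely on controls 1 and 2. Without these libraries, with the lone control assumed to vary like the heat libraries, 3 of 22 tested had an unadjusted p under 0.05, where 18.1% of all tested models did. Their median log2 fold change was then -0.17. Short models as a class were also fitted lower in heat. Over all 8163 tested models under 400 bases the median fitted log2 fold change was -0.56 and 61.5% were fitted below 0, where 11 of the 14 other models under 400 bases were. The part of model length in these differences was not tested. Summed over models, the CV of the 22 genes had a median of 24.5%, against 13.4% for the members chosen for a small CV. Of the 22 sums, 3 were at or under the CV of their member and 5 at or under that of the last member taken. Without controls 1 and 2 the medians were 15.8% for the sums and 13.1% for their members. The gene of TR49304 had a CV of 73.6% as a sum, and of 15.7% without controls 1 and 2. Its model TR49304|c0_g1_i1|m.96597, named after its values were seen, lies on the same assembled transcript as the member. This model had 16.8, 24.0 and 15.7 CPM in heat and 145, 95.1 and 23.2 CPM in the controls. Controls 1 and 2 were far above the rest, and control 3 lay inside the heat range.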

How the data were processed

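RNA from leaves was sequenced as paired 76-base reads on a MiSeq, per the labels' protocols. Salmon made the quantifications, per the submitters' processing notes, and its version and reference are not stated there. The deposited files give estimated counts, TPM and lengths for 43380 models, per the file headers. The authors' deposited table gives log2 fold changes, mean log2 CPM, p-values and FDR. Its fold changes correlated at -1.00 with an own exact test of heat over control across 43380 models, so its sign was reversed here.

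CPM used the unrounded estimated counts and library totals. The members, lists and tests were chosen with earlier results of these data known. Rounded counts were tested with edgeR 4.0.16 in R 4.3.3 (filterByExpr with a minimum count of 10 and a minimum total of 15, TMM, robust quasi-likelihood test with group alone, Benjamini-Hochberg adjustment over 23984 models, threshold 0.05), which was tested on simulated data. The p-values measure only library-to-library spread, possibly technical. Standard errors are the fold change divided by the root of F. The counting CV is the root of the mean of 1 over the expected reads, and covers counting error only. A pseudocount of 1 CPM was used for the unused library. Depth was 730315 to 3570524 reads, so 3 reads, the most a count of 0 allows, are 0.840 to 4.11 CPM. Models were named by rank in CV, level, length and ratio of heat to control, with the pair on each side of the limit of the set, and the extremes in fitted fold change of the other models. TR51251|c0_g1_i1|m.100316 was named as the partner of such a model. Lists of reference genes and cell type markers could not be looked up, since the files hold identifiers without names. Alternatives were other scalings, floors, measures of spread and set sizes, sums by gene, limma-voom with limma 3.58.1, edgeR's exact test, DESeq2 1.42.0, no filter, a replicate block, and each library left out.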

Additional observations from a re-analysis of the deposited data

How the results depend on the processing

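Of the 100 members, 29 were taken again with TMM, 51 with DESeq2 size factors and 8 with TPM at a floor of 20 TPM. With a floor of 50 CPM it was 36, and with no floor 62. With a floor of 10 CPM, the SD of log2 CPM, the range over the mean, or sums by gene it was 71, 93, 84 and 83. Leaving out 1 library kept 46 (without heat 2) to 69 (without heat 3), and leaving out controls 1 and 2, an alternative chosen after seeing the data, kept 19. Members with no overlap between groups numbered 9, and 19 with TMM, 29 with TPM, 15 to 23 with 1 library left out and 48 without controls 1 and 2, where fewer libraries make separation easier. Over the 4087 models the share was 27.2%, and 31.4% with TMM, 24.7% with TPM, 30.8% to 60.2% with 1 library left out and 58.4% without controls 1 and 2. Models called over the whole table numbered 1, and 9 without a filter, 5 with a replicate block, 4605 in edgeR's exact test, 4366 in DESeq2, 0 in limma-voom, 530 without controls 1 and 2 (1525 in the exact test and 796 in DESeq2 without them), and 0 to 15035 with 1 library left out, the high value without control 3. Members called were 0 in each of these fits, with a smallest adjusted p of 0.323 to 0.801 over the alternatives. Other models of the members' genes called were 0 of 17, and 9 of 17 in the exact test and 8 of 22 in DESeq2. Leaving out controls 1 and 2 leaves 1 control, and their median log2 fold change was then -0.17, against 0.09 over all tested models. With 1 library left out, 0 to 15 of the other models were called. The high value was 15 of 19 without control 3, where 15035 of 26925 models were called over the whole table. The cause was not tested. Replicate numbers were not treated as pairs: same-numbered deviations correlated at 0.01, 0.20 and 0.37, and heat 1 and heat 2 correlated best with a control of another number. The deviation in the unused library (median 0.34 log2) was 0.28 to 0.36 under other scalings, floor and set sizes. The median coding length was 985.5 to 1069.5 bases in sets of 50 or 200 models, with TMM and with size factors. It was 523.5 bases in the set by TPM, which also had a floor of 20 TPM. Size factors and TPM were added here after seeing the data. Depth limits the low end, since 20 CPM was 14.6 reads in control 2.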
